A study of Rattus norvegicus with 4 samples.

Results

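The natriuretic peptide and mechanical stress genes of cardiac muscle were followed in neonatal rat cardiomyocytes that overexpressed atrogin-1. The set was defined by gene name: Nppa, Nppb, Acta1, Ankrd1, Xirp1, Xirp2, Csrp2, Csrp3, Fhl1 and Fhl2, with every probe set of the array that the probe annotation pairs with one of them under its current or an older symbol. By this rule 13 of 31042 probe sets were members, and they covered 9 of the 10 genes. Fhl1 had 3 probe sets, Ankrd1 and Fhl2 had 2 each, and the other 6 measured genes had 1 each. Xirp2 was paired with no probe set and has no value here. The members and the related gene lists were chosen with earlier results of these arrays known.

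Cardiomyocytes came from Sprague-Dawley rats, which were 1 to 2 days old, and were plated on laminin. Ad-atrogin-1 cells (2 arrays) were infected with an adenovirus that carries atrogin-1 together with GFP, and Ad-GFP control cells (2 arrays) with one that carries GFP alone. Both groups were then kept without serum for 24 hours, so that infection, GFP and serum withdrawal were common to them. By the labels, the arrays within each group are biological replicates, and p-values cover only the spread among them.

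Natriuretic peptides are hormones that cardiomyocytes release when the heart wall is stretched, and they lower blood volume and pressure through receptors that make cyclic GMP. The other genes of the set encode proteins of the sarcomere, the Z-disc and the intercalated disc, several of which bind titin or actin and can move to the nucleus when load changes. In rodents most of them are strongly expressed in the fetal heart or are induced again in the hypertrophied ventricle, and they serve as markers of that state.

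Signals are log2 values made by robust multi-array average (RMA), so that a difference of 1 is 2-fold. Differences are Ad-atrogin-1 minus Ad-GFP. The groups were compared with limma over all 31042 probe sets, and a call required both a 2-fold difference and an adjusted p below 0.05. Fbxo32, the gene of atrogin-1, had signals of 13.55 and 13.47 in Ad-atrogin-1 cells, against 5.24 and 5.04 in Ad-GFP cells (331-fold higher, adjusted p = 7.67e-05, limma). Viral transcripts and those of the cells' own gene are not told apart by this signal. Array medians were 5.51 to 5.52. Of 10 cardiomyocyte markers measured, 8 had a mean signal of at least 10, and Mb (myoglobin) and Ryr2 (the calcium release channel) were dimmer. None of the 10 was called, against 0.457% of 14217 genes called higher and 0.0563% called lower. At 3 of them (Tnni3, Myl2 and Pln) both Ad-atrogin-1 values lay above both Ad-GFP values, against 20.7% of all genes. At 0 of them both lay below, against 22.3%. The differences ran from -0.21 at Mb to 0.82 at Myh6, where the groups overlapped, and Tnnt2 (cardiac troponin T) had -0.11. These genes were named after their values were seen.

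One member stood more than 2-fold apart between the groups, and none was called. Csrp2 was 2.30-fold higher in Ad-atrogin-1 cells at an adjusted p of 0.0797 (limma). Of the 13 probe sets, 0 were called higher, against 0.248% of all probe sets, and 0 lower, against 0.0258%. At an unadjusted p under 0.05, limma had 2 of the 13, Csrp2 and one of Fhl2, against 11.2% of all probe sets. An equal-variance comparison of the 2 means also had 2 at that threshold, against 2599 of all 31042 probe sets. Differences of the other 12 probe sets lay between -0.32 and 0.33, and the median over the 13 was -0.11, against -0.01 over all probe sets. The 95% intervals of 12 of the 13 lay within 2-fold in either direction, as did those of 93.9% of all probe sets, and 6 lay within 1.5-fold, against 68.1%. These intervals are not adjusted for the number of probe sets. In such cultures, fewer cells that express a gene and less of its RNA per cell cannot be told apart.

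**Figure D1:**
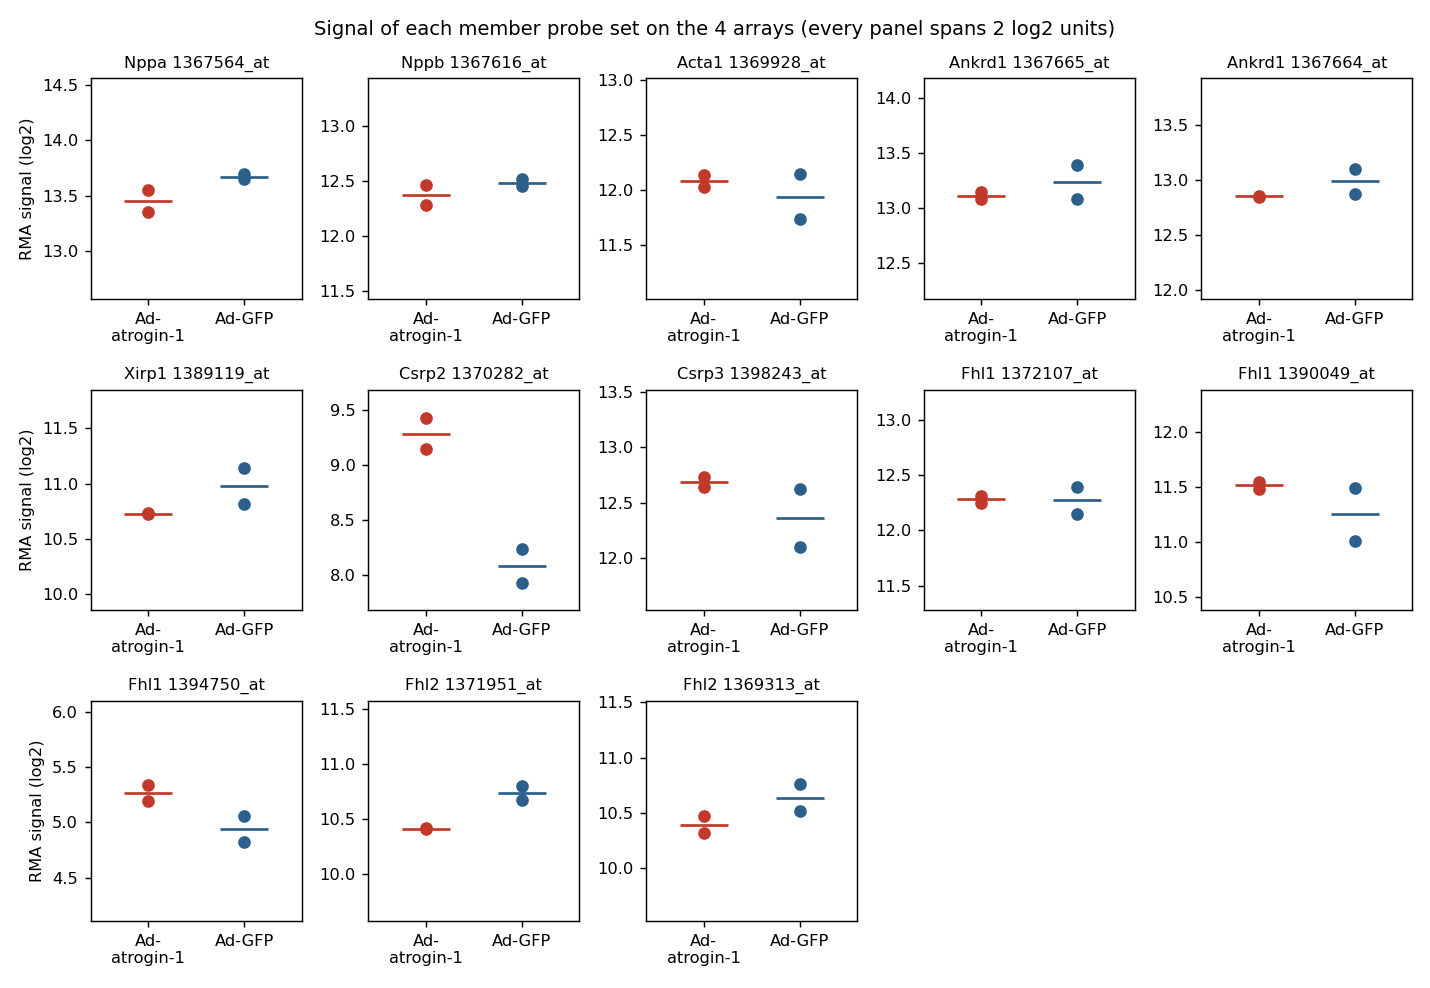
RMA signal (log2, vertical axis) of each member probe set on the 2 Ad-atrogin-1 arrays (red, left) and the 2 Ad-GFP arrays (blue, right), with group means as bars; every panel spans 2 log2 units, so that distances can be compared between panels. The gap between groups at Csrp2 (9.28 against 8.08 on average) is wider than in any other panel.

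The natriuretic peptide genes did not pass the test, and a change as large as 1.5-fold lay outside both intervals. Nppa encodes atrial natriuretic peptide. It had signals of 13.55 and 13.35 in Ad-atrogin-1 cells, against 13.65 and 13.69 in Ad-GFP cells. Both Ad-atrogin-1 arrays thus lay below both Ad-GFP arrays, by as little as 0.09 between the nearest pair. The difference was -0.22 (standard error 0.13, 95% interval -0.53 to 0.10, adjusted p = 0.610, limma). It was -0.32 without Ad-atrogin-1 replicate 1 and -0.12 without Ad-atrogin-1 replicate 2. Only 0.0161% of probe sets were brighter on average than Nppa, and the highest value on any array was 13.99. Whether the response of the array flattens at such signals was not tested.

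Nppb encodes B-type natriuretic peptide, whose gene lies close to Nppa on chromosome 5. It had signals of 12.29 and 12.46 in Ad-atrogin-1 cells and 12.45 and 12.52 in Ad-GFP cells. The groups overlapped, with Ad-atrogin-1 replicate 2 above Ad-GFP replicate 1. The difference was -0.11 (standard error 0.12, 95% interval -0.42 to 0.20, adjusted p = 0.820, limma). It was -0.02 without Ad-atrogin-1 replicate 1 and -0.20 without Ad-atrogin-1 replicate 2. At both natriuretic peptide genes the Ad-GFP replicates were close to each other, 0.05 apart at Nppa and 0.07 at Nppb, and the Ad-atrogin-1 replicates further apart, 0.20 and 0.17.

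The proximal promoters of both genes are shown because they are the textbook reporters of load and hypertrophy in cardiomyocytes. Sequences are those of RefSeq, build GRCr8, for the 250 bases before the annotated start, 5′ to 3′. Capitals mark matches on either strand to 5 motifs: the CArG box (bound by SRF), the MEF2 site, CATTCC (the M-CAT core bound by TEAD factors), GATAA (GATA factors) and TNAAGTG (NKX2-5). A match is a run of letters and not a measured binding site. Nppa lies at chr5:163711934-163712183 and Nppb at chr5:163699758-163700007, both on the plus strand. The annotated Nppb gene begins at base 163699955, inside this window, so that the start used for Nppb lies within the gene.
Nppa: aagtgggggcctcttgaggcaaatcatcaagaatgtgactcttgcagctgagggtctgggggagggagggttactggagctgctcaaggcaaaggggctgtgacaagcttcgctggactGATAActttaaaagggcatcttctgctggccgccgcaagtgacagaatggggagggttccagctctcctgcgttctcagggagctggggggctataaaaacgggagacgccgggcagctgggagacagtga
Nppb: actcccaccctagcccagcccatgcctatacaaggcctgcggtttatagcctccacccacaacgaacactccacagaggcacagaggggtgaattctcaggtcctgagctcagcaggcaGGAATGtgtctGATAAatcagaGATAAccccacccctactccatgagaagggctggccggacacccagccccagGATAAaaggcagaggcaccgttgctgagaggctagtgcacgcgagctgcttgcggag
In these windows GATAA occurred 1 time at Nppa and 3 times at Nppb, and CATTCC 1 time at Nppb, on the minus strand. The last GATAA of Nppb, 57 to 53 bases before the start used, reaches the first base of the annotated gene. For comparison, 23.5% of 33469 RefSeq promoter windows of this length held GATAA and 12.1% held CATTCC.

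Of the genes that make, sense and remove natriuretic peptides or their second messenger, 9 of 11 listed were measured, and 0 were called in either direction, against 0.457% of 14217 genes called higher and 0.0563% called lower. For these counts the brightest probe set stands for its gene and p is adjusted over genes. The median difference over the 9 genes was -0.07, against -0.003 over all genes. Furin, a protease that can cut natriuretic peptide precursors, had 9.01 and 9.13 in Ad-atrogin-1 cells, against 9.25 and 9.22 in Ad-GFP cells (difference -0.16, standard error 0.12). Pde2a, a phosphodiesterase that breaks down cyclic GMP, had 7.88 and 7.97 in Ad-atrogin-1 cells and 7.10 and 8.14 in Ad-GFP cells, and the groups overlapped. The receptor genes were looked at after their values were seen. Npr1, the guanylyl cyclase receptor of both peptides, had a difference of -0.26 (standard error 0.14, adjusted p = 0.488, limma), Npr2, the receptor of C-type natriuretic peptide, 0.28 (0.14, 0.460) and the clearance receptor gene Npr3 -0.17 (0.13, 0.627).

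Acta1 encodes skeletal alpha-actin, which the fetal rodent ventricle expresses and the adult ventricle expresses again in hypertrophy. It had signals of 12.14 and 12.03 in Ad-atrogin-1 cells, against 11.74 and 12.15 in Ad-GFP cells. Both Ad-atrogin-1 values lay between those of the Ad-GFP replicates. The difference was 0.14 (standard error 0.17, 95% interval -0.28 to 0.56, adjusted p = 0.833, limma), and it was -0.06 without Ad-GFP replicate 1 and 0.35 without Ad-GFP replicate 2.

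The Acta1 promoter is shown because it holds both an SRF and a TEAD motif within a short distance, at chr19:68784195-68784444 on the minus strand.
Acta1: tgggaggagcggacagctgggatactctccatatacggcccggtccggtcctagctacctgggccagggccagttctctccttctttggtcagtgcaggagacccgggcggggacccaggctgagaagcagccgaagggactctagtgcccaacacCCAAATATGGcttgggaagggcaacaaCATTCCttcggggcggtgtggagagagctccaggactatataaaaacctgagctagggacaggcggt
Its CArG box began 94 bases before the start and its CATTCC 67 bases before it. A CArG box was found in 1.5% of the 33469 promoter windows, and in 4 of the 12 windows of the member genes, 1 each at Acta1 and Fhl1 and 2 at Fhl2.

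Ankrd1 encodes a cardiac ankyrin repeat protein that binds titin at the I-band and also acts in the nucleus. Its brighter probe set had signals of 13.08 and 13.14 in Ad-atrogin-1 cells and 13.39 and 13.08 in Ad-GFP cells. Its other probe set had 12.85 and 12.85 in Ad-atrogin-1 cells, against 13.10 and 12.87 in Ad-GFP cells. At both, Ad-GFP replicate 1 was the high array, and Ad-GFP replicate 2 lay within 0.02 of the nearest Ad-atrogin-1 array. Differences were -0.12 (standard error 0.14, adjusted p = 0.828, limma) and -0.14 (0.13, 0.785), and without Ad-GFP replicate 1 they were 0.03 and -0.02. Without Ad-GFP replicate 2 they were -0.28 and -0.25.

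Xirp1 encodes a Xin protein, which has actin-binding repeats and sits at the intercalated disc. It had signals of 10.73 and 10.72 in Ad-atrogin-1 cells, against 11.14 and 10.81 in Ad-GFP cells. Both Ad-atrogin-1 arrays lay below both Ad-GFP arrays, with a difference of -0.25 (standard error 0.15, 95% interval -0.62 to 0.12, adjusted p = 0.613, limma). It was -0.09 without Ad-GFP replicate 1 and -0.41 without Ad-GFP replicate 2. The Ad-GFP replicates were 0.33 apart and the Ad-atrogin-1 replicates 0.01 apart.

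Of 17 listed partners of Xin at the intercalated disc and costamere, 15 were measured and 0 were called, and 3 had overlapping groups. Ad-atrogin-1 cells had the lower values at 10 of these genes, where 22.3% of all genes had that order, and the higher values at 2, against 20.7% of all genes. Their median difference was -0.20. Ctnna1, the alpha-catenin that ties cadherins to actin, had 11.43 and 11.44 in Ad-atrogin-1 cells, against 11.63 and 11.64 in Ad-GFP cells (-0.20, standard error 0.11, adjusted p = 0.516, limma). Ctnnb1, the gene of beta-catenin, to which Xin proteins bind, had 11.27 and 11.37 in Ad-atrogin-1 cells and 11.34 and 11.26 in Ad-GFP cells, with a difference of 0.02. Among 22 listed genes of titin and the Z-disc, 20 were measured, 0 were called and the median was 0.03. At 12 of the 20 the groups overlapped. Ad-atrogin-1 cells had the lower values at 4 and the higher at 4, against the same 22.3% and 20.7% of all genes. The small heat shock protein gene Cryab had a difference of 0.12 (standard error 0.14) and the alpha-actinin gene Actn2 -0.17 (0.16). Mypn, which encodes myopalladin, a Z-disc protein that also binds Ankrd1, was singled out after its values were seen. It had 7.51 and 7.25 in Ad-atrogin-1 cells, against 8.30 and 8.43 in Ad-GFP cells, a difference of -0.98 (standard error 0.14). At gene level it missed both thresholds, with 1.98-fold and an adjusted p = 0.0603 (limma).

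Csrp2 and Csrp3 encode small proteins of 2 LIM domains, zinc-binding modules through which they bind other proteins. Csrp2, also called SmLIM, is best known from smooth muscle, whereas Csrp3, the muscle LIM protein, belongs to the Z-disc of striated muscle and is needed for normal heart structure in mice. Csrp2 had signals of 9.43 and 9.14 in Ad-atrogin-1 cells, against 7.92 and 8.24 in Ad-GFP cells. Both Ad-atrogin-1 arrays lay well above both Ad-GFP arrays: the nearest pair was 0.91 apart, while the replicates were 0.28 apart in Ad-atrogin-1 and 0.31 in Ad-GFP cells. The difference was 1.20 (standard error 0.17, 95% interval 0.79 to 1.62), or 2.30-fold (1.72-fold to 3.07-fold). The unadjusted p was 0.000487 and the adjusted p 0.0797 (limma), which is over the threshold. By the size of the difference Csrp2 ranked 168th of 31042 probe sets, and 0.979% of all probe sets differed at least 2-fold. The study also picked Csrp2 from these same arrays, so that its value here is not independent evidence.

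Csrp3 had signals of 12.64 and 12.73 in Ad-atrogin-1 cells, against 12.63 and 12.10 in Ad-GFP cells. The groups did not overlap, but the nearest pair was only 0.01 apart, and Ad-GFP replicate 2 alone was low. The difference was 0.32 (standard error 0.19, 95% interval -0.16 to 0.80, adjusted p = 0.624, limma), with 0.58 without Ad-GFP replicate 1 and 0.06 without Ad-GFP replicate 2. Whether Csrp2 and Csrp3 differ from each other in their response was not tested.

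The promoter window of Csrp2, the member with the largest difference, is shown for contrast with those of the natriuretic peptide and actin genes. It lies at chr7:48235165-48235414 on the plus strand, and none of the 5 motifs was found in it.
Csrp2: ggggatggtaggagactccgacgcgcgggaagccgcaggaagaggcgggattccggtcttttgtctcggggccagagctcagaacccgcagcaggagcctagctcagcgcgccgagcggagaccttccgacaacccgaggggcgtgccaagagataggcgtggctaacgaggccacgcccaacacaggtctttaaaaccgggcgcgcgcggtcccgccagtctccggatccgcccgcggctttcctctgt
This says only that these letters are not in the window. For Ankrd1 and Csrp3 no promoter sequence is shown.

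**Figure D2:**
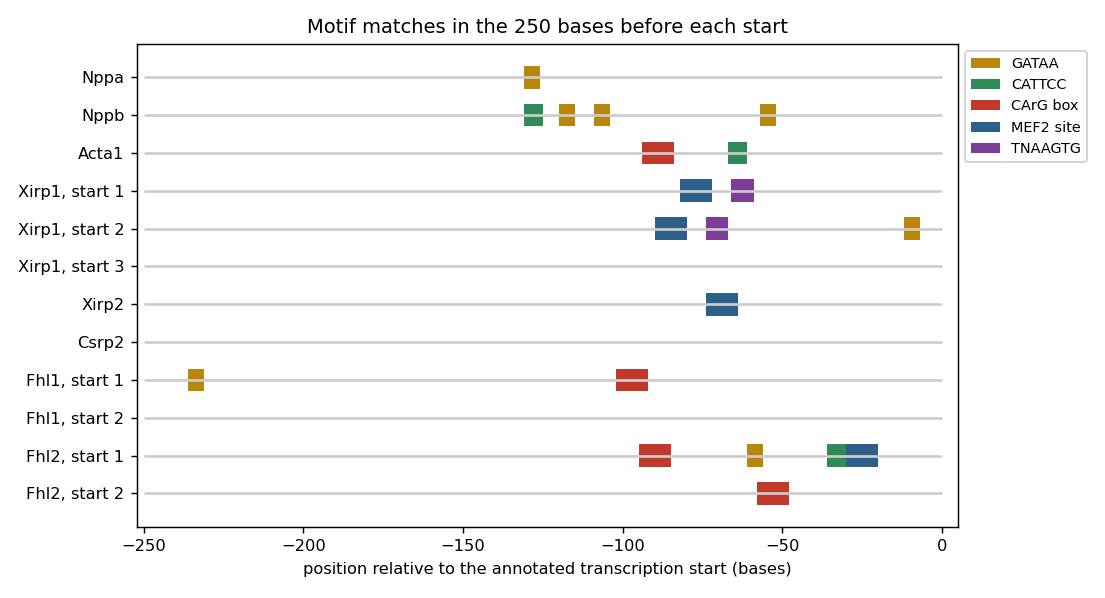
Matches to 5 motifs on either strand in the 250 bases before each annotated start of the members with a promoter sequence; the horizontal axis gives the position relative to the start in bases, and genes with several starts have a line for each. Csrp2 has no match, Nppb has 3 matches to GATAA, and a CArG box lies at Acta1, at 1 of 2 Fhl1 starts and at both Fhl2 starts.

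Csrp2 is a smooth muscle gene in other settings, so the smooth muscle and pericyte markers are given beside it. Of 8 markers, 8 were measured and 0 were called. Their median difference was 0.08, and their summed linear signal was 4982 to 5185 in Ad-atrogin-1 and 4599 to 5059 in Ad-GFP cells, so that the groups overlapped. The markers named here were chosen after their values were seen. Tagln and Cnn1, which encode the smooth muscle proteins transgelin and calponin, had differences of -0.03 and -0.01, and Acta2, smooth muscle actin, 0.17 (standard error 0.20). Rgs5, a pericyte marker, had 7.22 and 7.64 in Ad-atrogin-1 cells, against 6.34 and 6.57 in Ad-GFP cells (difference 0.98, standard error 0.18, adjusted p = 0.102 over genes, limma). The groups also did not overlap at Myh11, smooth muscle myosin (0.32), at the smooth muscle gene Smtn (-0.34) and at Cspg4, another pericyte marker (-0.50). Ad-atrogin-1 cells thus had the higher values at 2 of the 8 markers and the lower at 2, against 20.7% and 22.3% of all genes. The part of such cells in the Csrp2 signal was not tested. None of the 8 markers was under the lower quartile of all 4 arrays. Of 8 fibroblast markers 0 were called, with summed signals of 12628 to 13238 in Ad-atrogin-1 and 10386 to 13513 in Ad-GFP cells. The sums of 6 endothelial markers were 395 and 787 in Ad-atrogin-1 cells, against 385 and 556 in Ad-GFP cells. Those of 7 macrophage and leukocyte markers were 543 and 217, against 314 and 356. In these last 2 lists the Ad-atrogin-1 replicates lay further apart than the Ad-GFP replicates. For the smooth muscle and fibroblast sums the reverse held.

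The 5 genes whose pattern over the 4 arrays was nearest to that of Csrp2 were Ccdc167, Tnni1, Fgf9, Eif2ak3 and Ggct. Likeness was the root mean square distance between signals centred on their mean, which was 0.03 for Ccdc167 and 0.08 for Ggct, the fifth. Such a match over 4 arrays reflects mainly the difference between groups. Tnni1, the slow skeletal troponin I of the fetal heart, had 11.86 and 11.66 in Ad-atrogin-1 cells, against 10.42 and 10.65 in Ad-GFP cells at the probe set concerned. Fgf9 encodes a fibroblast growth factor and Eif2ak3 the endoplasmic reticulum stress kinase PERK, and their differences at the matched probe sets were 1.19 and 1.21. Both were also picked by the study from these same arrays.

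Fhl1 and Fhl2 encode proteins made up of LIM domains that bind the spring region of titin. Fhl1 acts there with MAP kinases in mouse heart, and Fhl2 also binds transcription factors. The brightest Fhl1 probe set had signals of 12.31 and 12.25 in Ad-atrogin-1 cells and 12.39 and 12.15 in Ad-GFP cells. The Ad-atrogin-1 values lay between those of Ad-GFP, and the difference was 0.01 (standard error 0.13, 95% interval -0.32 to 0.34). The middle Fhl1 probe set had 11.48 and 11.54 in Ad-atrogin-1 cells, against 11.49 and 11.01 in Ad-GFP cells. Here Ad-GFP replicate 2 alone was low, as at Csrp3, and the difference was 0.26 (standard error 0.18, adjusted p = 0.675, limma), with 0.02 without that array and 0.50 without Ad-GFP replicate 1. The dimmest Fhl1 probe set, with 5.20 and 5.34 in Ad-atrogin-1 cells against 4.82 and 5.05 in Ad-GFP cells, was below the array medians, and its groups did not overlap (difference 0.33, standard error 0.14, adjusted p = 0.465, limma; 0.21 without Ad-GFP replicate 1).

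Fhl2 did not pass the test at either of its probe sets. Its brighter probe set had 10.41 and 10.41 in Ad-atrogin-1 cells, against 10.80 and 10.67 in Ad-GFP cells. Its other probe set had 10.32 and 10.47 in Ad-atrogin-1 cells, against 10.76 and 10.52 in Ad-GFP cells. Both Ad-atrogin-1 arrays lay below both Ad-GFP arrays at both probe sets, by 0.26 and 0.05 between the nearest pairs. Differences were -0.32 (standard error 0.12, 95% interval -0.62 to -0.03, unadjusted p = 0.0359, adjusted p = 0.403, limma) and -0.25 (0.14, interval -0.59 to 0.10, adjusted p = 0.597). The second difference was -0.12 without Ad-GFP replicate 1 and -0.37 without Ad-GFP replicate 2. Neither was called, and a 2-fold decrease lay outside both intervals.

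The window before the first annotated Fhl2 start, at chr9:52954541-52954790 on the minus strand, is shown because it held more kinds of motif than any other member window. It has a CArG box, a GATAA match on the minus strand, and a CATTCC that runs directly into a MEF2 site.
Fhl2: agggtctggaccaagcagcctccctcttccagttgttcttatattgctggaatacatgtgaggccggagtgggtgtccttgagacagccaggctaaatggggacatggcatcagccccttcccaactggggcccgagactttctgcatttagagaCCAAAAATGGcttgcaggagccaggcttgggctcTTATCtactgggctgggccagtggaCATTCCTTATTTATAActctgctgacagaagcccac
A MEF2 site was found in 2.96% of all windows and in 4 of the 12 member windows, at Xirp2, at the first Fhl2 start and at 2 overlapping windows of Xirp1. TNAAGTG was found in 9.89% of all windows and among the members only in those 2 Xirp1 windows.

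Of 11 listed genes of other LIM proteins, 9 were measured and 0 were called. Differences were below 0 at 9 of the 9, against 50.7% of all genes. They ran from -0.75 to -0.11 with a median of -0.23. After a further quantile normalization of the arrays all 9 were still below 0, against 51.1% of all genes. Centring the arrays moved all differences by the same small amount, so that it could not test these signs. At 4 of the 9 the Ad-atrogin-1 values lay below both Ad-GFP values, against 22.3% of all genes. Zyx, which encodes zyxin, a LIM protein of stressed actin filaments, had 10.53 and 10.54 in Ad-atrogin-1 cells, against 11.22 and 11.12 in Ad-GFP cells (-0.64, standard error 0.12, adjusted p = 0.0991, limma). Lmcd1, a LIM protein that restrains GATA6, had 10.45 and 11.05 in Ad-atrogin-1 cells and 10.95 and 10.78 in Ad-GFP cells, with overlapping groups.

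**Figure D3:**
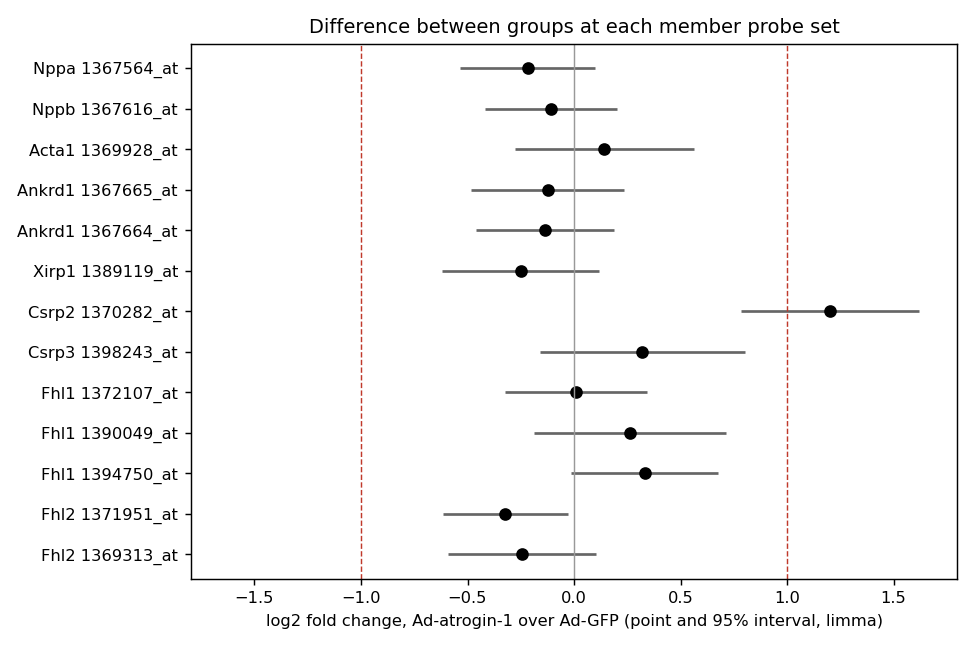
Difference between groups (horizontal axis, log2 of Ad-atrogin-1 over Ad-GFP) at each member probe set, with bars for 95% intervals from limma and dashed lines at 2-fold. Only the Csrp2 interval (0.79 to 1.62) crosses a dashed line, and only the intervals of Csrp2 and the brighter Fhl2 probe set leave out 0.

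Among 13 member probe sets, 8 had groups that did not overlap, against 40.4% of all probe sets. At 3 of them both Ad-atrogin-1 arrays were the higher (18.3% of all probe sets) and at 5 the lower (22.1%). Except at Csrp2 the gap between the nearest arrays of the groups was at most 0.26.

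The Ad-GFP replicates differed more than the Ad-atrogin-1 replicates at 11 of the 13 probe sets, against 49.2% of all probe sets; the exceptions were Nppa and Nppb. Over the members, the median gap between replicates was 0.09 in Ad-atrogin-1 cells, against 0.24 in Ad-GFP cells. Over the 941 probe sets with a mean signal of at least 10, which included 11 of the members, these medians were 0.15 in Ad-atrogin-1 and 0.13 in Ad-GFP cells. Ad-GFP replicate 1 was above replicate 2 at 8 member probe sets and below it at 5. The largest gaps between Ad-GFP replicates were 0.53 at Csrp3, 0.47 at the middle Fhl1 probe set and 0.41 at Acta1. These gaps exceeded the difference between the groups at the same probe sets.

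**Figure D4:**
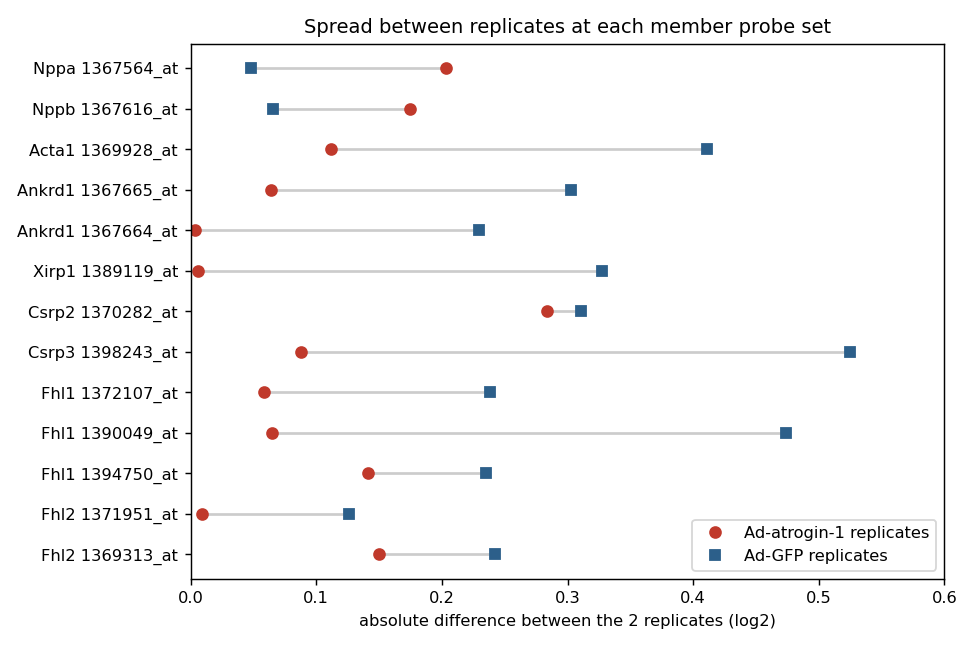
Absolute difference between the 2 replicates (log2, horizontal axis) at each member probe set, for Ad-atrogin-1 (red circles) and Ad-GFP (blue squares). The blue squares lie to the right at 11 of 13 probe sets and reach 0.53 at Csrp3, while Nppa and Nppb show the reverse order.

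Of 16 listed genes of the fetal heart, the adult ventricle and hypertrophy, 15 were measured. Of these, 2 were called higher, Tnni1 and Hspb7, against 0.457% of all genes, and 0 lower, against 0.0563%. The list was chosen with earlier results of these arrays known, and the study also picked Hspb7, Myh6 and Atp2a2 from them. The count of 2 and the values of these genes are therefore not independent evidence. The median difference over the 15 was 0.33, but the list holds genes that fall in rodent hypertrophy as well as genes that rise in it, so that its median has no single meaning. Among genes looked at after their values were seen, Myh6 and Atp2a2, of adult myosin and the calcium pump, had 0.82 and 0.72 (standard errors 0.44 and 0.27). Edn1 and Timp1 had -0.43 and -0.57 (0.25 and 0.14). The groups overlapped at Myh6 and Edn1. Myh7, of fetal myosin, and Ccn1 had 0.38 and 0.96 (0.20 and 0.44), and at both genes the Ad-atrogin-1 values were the higher without overlap. Both Ad-atrogin-1 values lay above both Ad-GFP values at 7 of the 15 genes and below at 4, against 20.7% and 22.3% of all genes. Tnni1 was 2.34-fold higher at its brightest probe set (difference 1.23, standard error 0.14, adjusted p = 0.0449 over genes, limma). Hspb7, a small heat shock protein of heart muscle, had 11.75 and 11.80 in Ad-atrogin-1 cells, against 10.79 and 10.69 in Ad-GFP cells (1.04, standard error 0.12, adjusted p = 0.0418 over genes). With adjustment over all probe sets in place of genes, neither of these 2 probe sets passed. The groups did not overlap at either gene.

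Of 19 listed transcription factors and coactivators known to act on promoters of this kind, 17 were measured and 0 were called, with a median difference of 0.02, or -0.02 after a further quantile normalization. Ad-atrogin-1 cells had the higher values at 6 of the 17 and the lower at 5, against 20.7% and 22.3% of all genes. Looked at after their values were seen, Srf and Mef2a had 0.39 and 0.45 (standard errors 0.14 and 0.13), with the groups apart. Mef2c and Mef2d had -0.01 and -0.12 (0.17 and 0.12). Tead1, a factor that binds the M-CAT motif, had 10.81 and 10.62 in Ad-atrogin-1 cells, against 11.15 and 11.15 in Ad-GFP cells (-0.44, standard error 0.13, adjusted p = 0.242, limma). The cardiac factor gene Gata4 had 10.36 and 10.24 in Ad-atrogin-1 cells and 10.49 and 9.86 in Ad-GFP cells, and the groups overlapped. Of the atrial markers, relevant because Nppa is a gene of the atrium in the adult heart, 4 of 5 were measured and 0 were called. The 2 brightest, both atrial myosin light chains, lay apart in opposite directions. Myl7 had 9.26 and 9.07 in Ad-atrogin-1 cells, against 8.29 and 7.99 in Ad-GFP cells (1.03, standard error 0.15, 2.04-fold, adjusted p = 0.0667 over genes, limma). Myl4 had 9.09 and 8.43 in Ad-atrogin-1 cells, against 9.33 and 9.36 in Ad-GFP cells (-0.58, standard error 0.22, adjusted p = 0.358). The summed linear signal of the 4 was 926 to 1199 in Ad-atrogin-1 and 948 to 992 in Ad-GFP cells, with Kcna5 under the lower quartile of every array. The part of atrial cells in the Nppa signal was not tested.

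**Figure D5:**
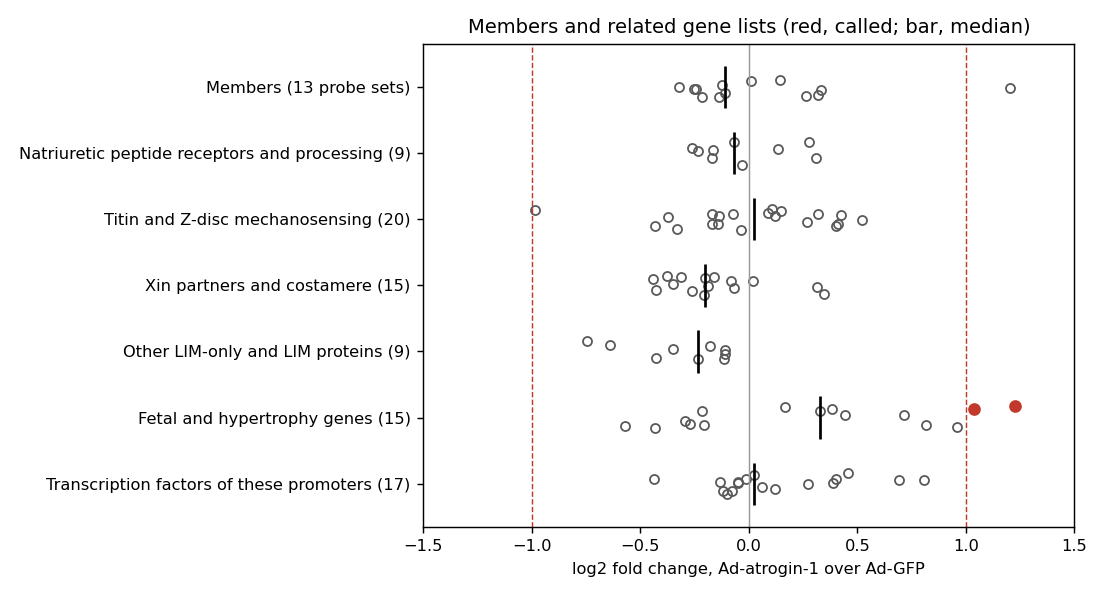
Difference between groups (Ad-atrogin-1 minus Ad-GFP, log2, horizontal axis) for the 13 member probe sets and for the measured genes of 6 related lists, with bars for medians, red points for called genes and dashed lines at 2-fold. Tnni1 and Hspb7 are the 2 called genes, and the median of the members is -0.11.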

How the data were processed

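Affymetrix rat genome arrays, 1 per sample, measured total RNA of 2 Ad-atrogin-1 and 2 Ad-GFP samples. The authors deposited log2 values, which GeneSpring GX had summarised per probe set by RMA. No further scaling was applied, and the number of arrays limits the precision. After removal of 57 control probe sets, all 31042 others entered the fit whatever their signal. The platform annotation paired 20826 of them with 1 gene, 436 with several and 9780 with none. Groups came from the labels. The two-sided fit without a block used lmFit and eBayes of limma 3.58.1 (R 4.3.3), with 2 residual and 3.65 prior degrees of freedom, and p was adjusted by Benjamini-Hochberg over all probe sets. For gene lists, the brightest probe set stood for each of 14217 genes. Standard errors are those of this moderated fit. The genes named are all members and, of each pathway list, the called genes or the 2 brightest, and the 5 genes nearest to the member with the largest difference; others are named as chosen after their values were seen. Members and lists were chosen with earlier results of these data known. Alternatives changed the scaling, filter, prior, test, threshold, gene summary, replicate block and arrays included. Promoters (33469 windows) were searched for letter patterns. Plots were made in matplotlib 3.10.9. PCR and protein data were not analysed here.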

Additional observations from a re-analysis of the deposited data

How the results depend on the processing

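No member probe set was called higher or lower under 15 of 18 alternative settings. The other 3 required 2-fold with no test, with an unadjusted p from limma, or with an unadjusted p from the methods' comparison of 2 means, run with equal variances. In that order they called 220, 217 and 158 of all 31042 probe sets higher, and 84, 78 and 33 lower. Under these 3 settings Csrp2 was the 1 member called, as higher. Its adjusted p was 0.0508 to 0.558 over the settings with all arrays and 0.483 to 0.569 with 1 array left out, where its difference was 1.05 to 1.36. The brightest Fhl1 probe set (main difference 0.01) had -0.09 (-0.0874) after a further quantile normalization and lay between -0.11 and 0.13 with 1 array left out. Acta1 lay between -0.0634 (without Ad-GFP replicate 1) and 0.35, and the brighter Ankrd1 probe set between -0.28 and 0.0276 (without Ad-GFP replicate 1). Over all probe sets, limma called 77 higher and 8 lower, against 0 and 0 with any 1 array left out, when 2449 to 2852 had an unadjusted p under 0.05. The methods' comparison called 0 after adjustment, with 2599 at an unadjusted p under 0.05. The labels tie same-numbered arrays to no common culture, and deviations of same-numbered arrays correlated at 0.04, which leaves unknown whether the numbers pair them. With the replicate number as a block, 0 members were called, Csrp2 had a difference of 1.20 at an adjusted p of 0.257, and 1 probe set in all was called higher. Centring the arrays on their medians gave 105 higher and 14 lower, and the filter on dim probe sets 100 and 13.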
